A study of Mus musculus with 91 samples.

Results

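The transcripts of 9 chemokine receptors, Ccr2, Ccr4, Ccr6, Ccr7, Ccr8, Cxcr3, Cxcr4, Cxcr5 and Cxcr6, were followed in regulatory T cells (Tregs) of mouse spleen after injection of IL-2, of a fusion protein of IL-2 and its receptor chain CD25 (FP), or of PBS. They were taken by gene symbol from the 8 deposited count tables. All 9 were present in every table and passed the low-count filter in each, out of 20378 genes listed in at least 1 table. The fewest reads of a receptor in any library were 99, for Cxcr6.

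Every animal was of the C57/BL6 strain and carried a red fluorescent reporter of FoxP3, the transcription factor that defines Tregs, by which spleen Tregs were sorted for sequencing of total RNA. Age and sex were not used here. At 1.5 h there were 4 libraries each after FP, mouse IL-2 and PBS, at 4 h there were 3, 4 and 3, at 16 h there were 4 of each, and at 72 h there were 4, 3 and 3 in the same order. At 168 h there were 4 libraries after FP and 3 after PBS. An in vitro table held 3 libraries with IL-2 and 3 with PBS for 1.5 h, and a table named high dose held 3 after IL-2 and 3 after PBS, with neither dose nor time in the labels. A restimulation table held 4 libraries after FP and a further FP injection (repeated), 3 after PBS and then FP (single), and 3 after PBS given both times, all at 1.5 h. The time between these injections is not given in the sources used here.

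Chemokine receptors are membrane receptors coupled to inhibitory G proteins, and they steer cells along gradients of small secreted proteins, the chemokines. Ccr7, Cxcr5 and Cxcr4 guide lymphocytes within lymphoid organs and bone marrow. Ccr4, Ccr8, Ccr6, Ccr2, Cxcr3 and Cxcr6 are found more on activated or tissue-seeking T cells, and on Tregs they are known to mark the sites to which the cells can travel. In Tregs, IL-2 signals mainly through STAT5, and persistent signalling is known to move resting cells, which carry Ccr7, towards effector states.

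Library totals ran from 12.2 to 46.1 M reads. The 8 Treg markers summed to between 3490 and 7470 CPM, reads scaled to a common library size, in every library, against sums of 28.4 to 1280 CPM for 10 or 11 myeloid markers and 24.0 to 102 CPM for 6 to 10 B cell markers, by the number listed in each table. The FP libraries of 72 h and 168 h carried less myeloid RNA than their PBS libraries, 28.4 to 92.1 against 316 to 775 CPM at 72 h and 31.6 to 41.1 against 222 to 312 CPM at 168 h, and 10 of 11 and 8 of 10 myeloid markers tested fell there. Of the 4 h libraries, 2 had contradicting labels and stand outside all comparisons. In such bulk samples a lower level can come from fewer cells that carry a transcript or from less of it per cell, and these cannot be told apart. All changes below are log2 changes ± standard error (SE) from edgeR's quasi-likelihood test, with p-values adjusted over all genes tested, and a receptor counted as risen or fallen (called) below an adjusted p of 0.01. Levels are CPM scaled by library, each table on its own.

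In the GRCm38 annotation, 5 of the 9 genes lie on chromosome 9: Cxcr5 (44511787 to 44561877, minus strand), Ccr4 (114490316 to 114504916, minus), Ccr8 (120092114 to 120094906, plus), Cxcr6 (123806475 to 123811760, plus) and Ccr2 (124101950 to 124113557, plus). Cxcr4 lies on chromosome 1 (128588199 to 128592293, minus), Ccr7 on chromosome 11 (99144196 to 99155077, minus), Ccr6 on chromosome 17 (8236043 to 8257141, plus) and Cxcr3 on chromosome X (101731535 to 101734269, minus). Exons of Cxcr5 share 110 bases, 3.3% of their length, with Bcl9l on the opposite strand, and Cxcr6 lies inside Fyco1 on the opposite strand without sharing exon bases. Whether strand was used in counting is not given in the sources used here, so reads of these pairs may mix. Members of a receptor family can be alike in sequence, so some reads, of Ccr2 among others, may be assigned uncertainly.

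Promoters from RefSeq (GRCm38.p6, 250 bases before to 50 after a start) were at hand for 7 of the 9 receptors, with 8 starts in all. Those of Ccr4 and Cxcr3, which were called at 1.5 h of IL-2 and again at 72 h of FP, are shown. Also shown are Ccr6 (the upstream start) and Ccr2, with the lowest and the highest receptor change at 72 h and 168 h of FP. Capitals mark TTCNNNGAA, the letters of a STAT element, and TGANTCA, those of an AP-1 element, searched on both strands.
Ccr4, chr9:114496495-114496794, minus strand: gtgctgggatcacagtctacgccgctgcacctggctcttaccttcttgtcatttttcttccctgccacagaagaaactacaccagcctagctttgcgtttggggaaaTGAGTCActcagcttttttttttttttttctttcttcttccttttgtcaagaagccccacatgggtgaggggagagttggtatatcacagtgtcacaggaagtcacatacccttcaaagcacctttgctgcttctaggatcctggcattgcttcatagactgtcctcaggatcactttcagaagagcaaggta
Ccr6, chr17:8235793-8236092, plus strand: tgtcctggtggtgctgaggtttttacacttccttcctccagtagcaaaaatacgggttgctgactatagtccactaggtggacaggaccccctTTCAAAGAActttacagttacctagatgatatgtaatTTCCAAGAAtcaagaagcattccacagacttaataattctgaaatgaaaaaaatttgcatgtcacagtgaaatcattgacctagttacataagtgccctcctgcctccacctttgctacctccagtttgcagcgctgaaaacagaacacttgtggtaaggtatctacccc
Cxcr3, chrX:101734098-101734397, minus strand: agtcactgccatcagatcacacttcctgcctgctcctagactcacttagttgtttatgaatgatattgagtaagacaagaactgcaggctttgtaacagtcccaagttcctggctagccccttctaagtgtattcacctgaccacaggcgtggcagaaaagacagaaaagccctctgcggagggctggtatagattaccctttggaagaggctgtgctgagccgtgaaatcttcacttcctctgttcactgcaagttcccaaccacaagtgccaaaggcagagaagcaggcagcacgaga
Ccr2, chr9:124101933-124102232, plus strand: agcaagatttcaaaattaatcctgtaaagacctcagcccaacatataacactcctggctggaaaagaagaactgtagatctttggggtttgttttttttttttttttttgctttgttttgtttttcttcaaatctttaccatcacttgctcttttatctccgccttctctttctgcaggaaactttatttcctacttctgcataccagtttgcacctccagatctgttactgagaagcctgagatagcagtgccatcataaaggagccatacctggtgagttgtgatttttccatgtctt
TTCNNNGAA occurred in 1 of the 8 promoters, the upstream start of Ccr6, where it occurred 2 times, and in 8.3% of 32851 mouse promoters of this length. TGANTCA occurred in 1 of the 8, that of Ccr4, and in 7.81% of all promoters. This Ccr4 start lies inside the gene as annotated above, which on the minus strand begins at 114504916. CACCC, the letters of a KLF element, occurred in 3 of the 8 (Ccr4, Ccr8 and Cxcr4) and in 57.5% of all.

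Per length, Ccr7 and Cxcr4 were the most abundant receptors of spleen Tregs without cytokine. Over the 23 PBS libraries from animals, the median was 85.7 CPM per kilobase of exon for Ccr7 (60.3 to 138) and 60.8 for Cxcr4 (17.9 to 167), so the ranges of these neighbours overlapped. Cxcr3 (median 23.5), Ccr8 (19.5), Ccr4 (15.3), Cxcr5 (15.1) and Ccr6 (11.2) followed with overlapping ranges. Cxcr6 (8.08 CPM per kilobase, 2.51 to 10.9) and Ccr2 (3.56, 0.778 to 7.02) were lowest, with overlapping ranges. The length was that of all annotated exons of a gene joined, 6760 bases for Ccr2 and 1175 for Ccr8. Without it the medians were 24.0 CPM for Ccr2, 22.9 for Ccr8 and 15.6 for Cxcr6, so the order depends on the length used. After 72 h of FP the order differed: Ccr4 had 45.2 ± 4.68 CPM per kilobase (SD, n = 4), beside 43.9 ± 4.80 for Ccr7, and Ccr6 was lowest with 3.56 ± 0.772.

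**Figure D1:**
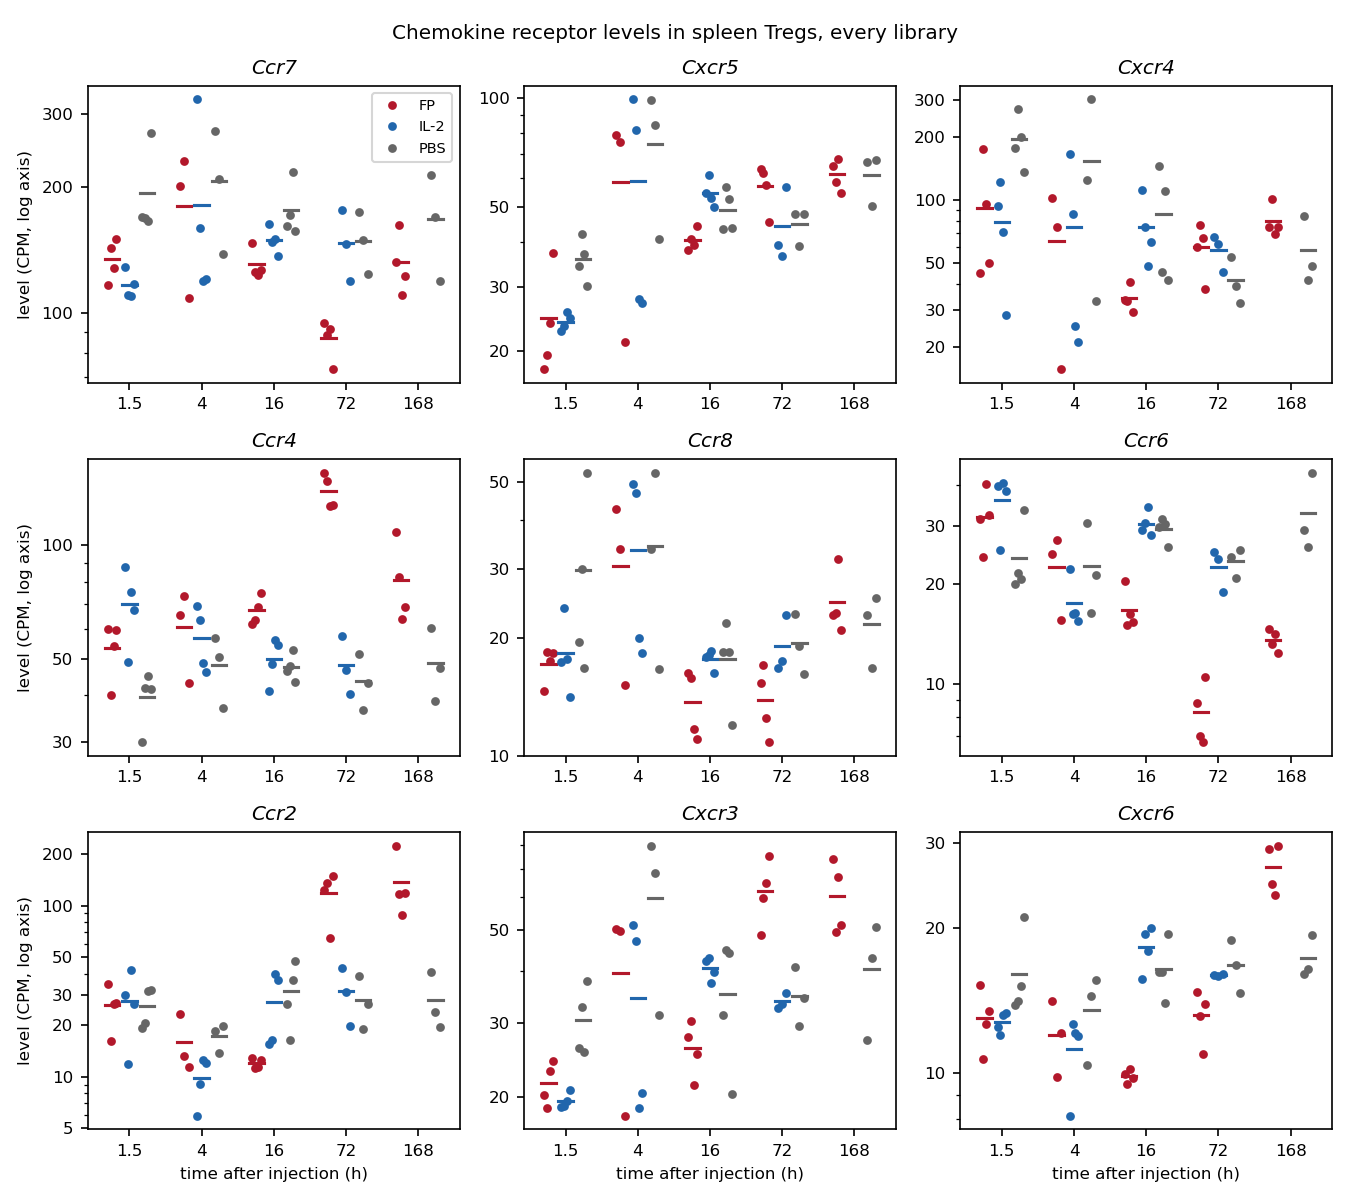
Level of each receptor (CPM, log axis) against time after injection (h) in every library of the time course, red for FP, blue for IL-2 and grey for PBS, with a line at each group's mean. Against the PBS libraries of the same time, Ccr2 and Ccr4 stood above all of them at 72 h of FP, Ccr6 below all of them from 16 h on, and Ccr7 below all of them at 16 h and 72 h. Over all genes tested, FP and PBS libraries did not overlap in 34.4% at 16 h, 46.9% at 72 h and 14.6% at 168 h.

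Counted over the 9 receptors, FP changed 6 of them at 16 h and 5 at 72 h, and IL-2 changed 3 of them at 1.5 h in the animal and 6 in vitro. At 16 h FP against PBS, 1 receptor rose and 5 fell, where 28.8% of all genes were called, and at 72 h 3 rose and 2 fell, where 30.4% were called. At 168 h FP against PBS, 1 rose and 1 fell, where 1.21% of genes were called. After IL-2 for 1.5 h, 1 rose and 2 fell, where 14.2% of genes were called, and in vitro 3 rose and 3 fell, where 13.9% were called. The median log2 change of the receptors was -0.43 at 16 h of FP and 0.35 at 72 h, against -0.05 over all genes at each time.

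No receptor was called at 1.5 h of FP (6.67% of genes called), at 4 h of IL-2 (0.652%) or of FP (0.913%), at 16 h of IL-2 (0.35%), at 72 h of IL-2 (0%) or after high-dose IL-2 (0%), each against PBS. At an unadjusted p under 0.05 these 6 comparisons held 6, 1, 0, 1, 0 and 4 receptors in that order. Over all genes they held 4449 of 16643, 2474 of 17636, 3108 of 17636, 2021 of 17453, 82 of 18624 and 2743 of 16668. DESeq2 called 2 at 1.5 h of FP, 2 after high-dose IL-2 and 0 in the other 4. Its share of all genes at 1.5 h of FP is not given here, so those 2 calls need not be particular to the receptors. Among all genes at 72 h of IL-2 and after high-dose IL-2, edgeR called 0 in each and DESeq2, tested on its own, called 0 and 549. Between FP and IL-2, 1 rose and 5 fell at 16 h (31.8% of genes called) and 3 rose and 2 fell at 72 h (30.8%). Between these agents 0 receptors were called at 1.5 h (0% of genes) or 4 h (0%), by edgeR or DESeq2. At an unadjusted p under 0.05 there were 1 receptor and 970 of 16643 genes at 1.5 h. At 4 h there were 0 receptors and 482 of 17636 genes. Of the receptors in the restimulation table, none was called after a single FP (0.0111%, 0 by DESeq2). There 1 receptor and 1608 of 17953 genes had an unadjusted p under 0.05. After repeated FP 1 fell (0.629%), and 1 rose and 1 fell between repeated and single FP (0.585%). Comparisons in 1 table share their PBS libraries. For each lack of overlap given here, the share of all genes tested without overlap follows. Against PBS it was 25.6% at 1.5 h of IL-2 and 31.6% in vitro. With FP it was 18.7% at 1.5 h, 34.4% at 16 h, 46.9% at 72 h and 14.6% at 168 h. Between FP and IL-2 it was 48.1% at 16 h and 48.5% at 72 h. Repeated FP gave 17.4% against PBS and 16.8% against single FP, and single FP gave 14.9% against PBS.

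**Figure D2:**
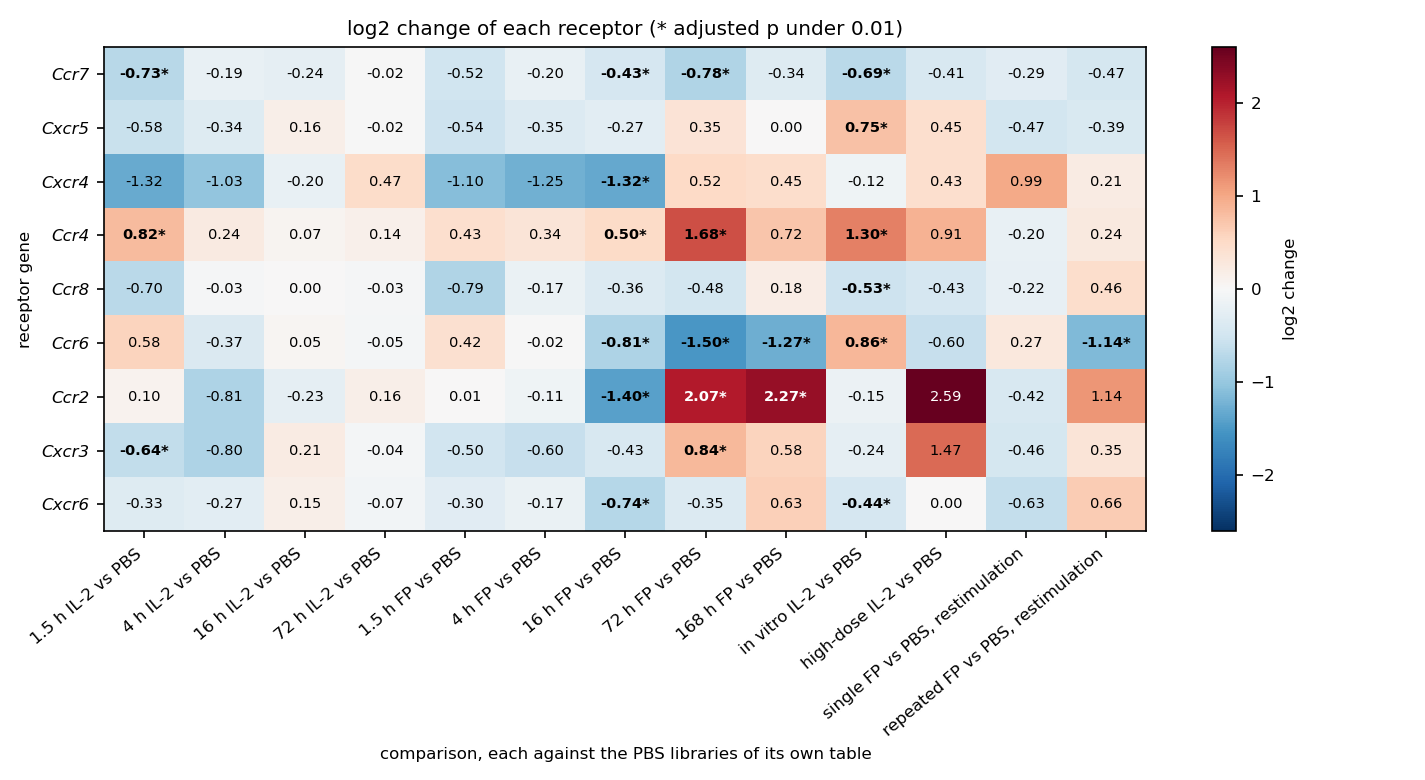
Log2 change of each receptor (rows) against the PBS libraries of its own table (columns), coloured from blue (lower) to red (higher), with a star and bold type at an adjusted p below 0.01. The 16 h FP column is blue in every row but Ccr4, and the 72 h IL-2 column has no star.

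Ccr7, the receptor for Ccl19 and Ccl21 that leads T cells into lymph nodes and the T cell zones of spleen, fell after either agent and in vitro. At 1.5 h it had 129, 111, 110 and 117 CPM after IL-2, against 169, 169, 166 and 270 CPM after PBS. No IL-2 library reached a PBS library, and PBS replicate 4 stood above the other PBS libraries. The change was -0.73 ± 0.144 (adjusted p = 0.002), and with FP, at 117, 143, 128 and 150 CPM, it was -0.52 ± 0.143 (adjusted p = 0.026), short of the threshold. In vitro, where Ccr7 had 981, 964 and 945 CPM with IL-2 against 1537, 1589.6 and 1539 CPM with PBS, the change was -0.69 ± 0.036 (adjusted p = 1.5e-14).

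At 16 h Ccr7 had 147, 126, 123 and 127 CPM after FP, against 161, 171, 217 and 157 CPM after PBS, a change of -0.43 ± 0.0965 (adjusted p = 0.0017). The groups did not overlap, and the adjusted p was 0.011 without FP replicate 3 and 0.010 with these 2 groups alone in the fit. At 72 h it had 94.7, 88.4, 91.3 and 73.2 CPM after FP, against 174, 149 and 124 CPM after PBS, a change of -0.78 ± 0.146 (adjusted p = 0.001). No FP library reached a PBS library at 72 h. Ccr7 is also a gene of dendritic cells, whose markers summed to 13.2 to 17 CPM after FP and 25.7 to 34.2 CPM after PBS at 72 h, with 0 of 6 risen and 4 fallen (median change -2.21). At 16 h the sums were 19.4 to 26.3 CPM after FP and 29.1 to 32.1 CPM after PBS (1 of 5 tested fell), and in vitro they were 11.8 to 12.9 CPM with IL-2 and 18.8 to 20.4 CPM with PBS (1 of 4 fell). The part of these cells in Ccr7 was not tested. At 168 h the groups overlapped, with 110 to 163 CPM after FP and 119 to 214 CPM after PBS (-0.34 ± 0.182, adjusted p = 0.41). With IL-2 it was -0.24 ± 0.0963 at 16 h (adjusted p = 0.36) and -0.02 ± 0.156 at 72 h (adjusted p of 1).

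Cxcr5, the receptor for Cxcl13 that leads cells into B cell follicles and marks follicular Tregs, had changes of opposite sign in the dish and in the animal. In vitro it had 30.4, 29.1 and 29.7 CPM with IL-2, against 19.3, 17.6 and 16.0 CPM with PBS, and rose by 0.75 ± 0.071 (adjusted p = 2.9e-09). In the animal at 1.5 h it had 22.8, 23.4, 25.6 and 24.6 CPM after IL-2, against 34.3, 42.1, 37.0 and 30.2 CPM after PBS. All 4 IL-2 libraries were below all PBS libraries, with a change of -0.58 ± 0.187 that did not pass (adjusted p = 0.037). The difference between both changes, in vitro minus animal, was 1.32 ± 0.25 and passed (adjusted p = 0.0018), and it was the 1 call among the 9 receptors in that test, where 4.96% of all genes were called. B cell markers summed to 27.8 to 32.4 CPM with IL-2 and 25.9 to 31.7 CPM with PBS in vitro, and to 40.1 to 102 CPM after IL-2 and 47.8 to 83 CPM after PBS in the animal. Cxcr5 is also a B cell gene, and the part of these cells in its values was not tested.

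Cxcr5 was also lower at 16 h of FP than at 16 h of IL-2, with 38.1, 40.9, 39.2 and 44.4 CPM after FP against 54.8, 61.3, 52.9 and 50.2 CPM after IL-2. The groups did not overlap, and the change was -0.43 ± 0.0953 (adjusted p = 0.0015, or 0.016 without IL-2 replicate 2). Against PBS it was -0.27 ± 0.0955 (adjusted p = 0.031). B cell marker sums in the same libraries were 36.0 to 53.6 CPM after FP, against 60.4 to 92.5 CPM after IL-2 and 61.5 to 75.4 CPM after PBS, and their part in this result was not tested.

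Cxcr4, the receptor for Cxcl12 that holds cells in bone marrow, varied widely between PBS libraries. At 16 h it had 33.6, 33.1, 40.8 and 29.3 CPM after FP, against 146, 45.5, 110 and 41.7 CPM after PBS. All FP libraries lay below the lowest PBS library, although PBS replicates 2 and 4 were close to them. Cxcr4 fell by 1.32 on the log2 scale (SE 0.33, adjusted p = 0.004), and the adjusted p was 0.012, 0.015, 0.018 and 0.019 without FP replicate 2, FP replicate 4, PBS replicate 1 or PBS replicate 3. At 1.5 h the means were 91.4 ± 60.0 CPM after FP and 79.0 ± 39.8 CPM after IL-2, against 196 ± 56.7 CPM after PBS (SD, n = 4 each). These changes were -1.32 ± 0.436 with IL-2 (adjusted p = 0.04) and -1.10 ± 0.433 with FP (adjusted p = 0.11). In vitro Cxcr4 stood at 401 ± 7.61 CPM with IL-2 and 435 ± 11.9 CPM with PBS (-0.12 ± 0.0353, adjusted p = 0.016).

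Ccr4, the receptor for Ccl17 and Ccl22 that is carried by activated and skin-seeking Tregs, rose at 1.5 h of IL-2, in vitro, and at 16 h and 72 h of FP. At 1.5 h it had 87.8, 49.1, 75.2 and 67.2 CPM after IL-2, against 30.0, 41.9, 45.0 and 41.6 CPM after PBS. Each IL-2 library was above each PBS library, and the change was 0.82 ± 0.176 (adjusted p = 0.0038). It rested on each of 4 libraries: without IL-2 replicate 1 or 3, or PBS replicate 1 or 2, the adjusted p was 0.011 to 0.014. In vitro it had 116, 126 and 119 CPM with IL-2, against 48.6, 48.3 and 49.5 CPM with PBS, a rise of 1.30 ± 0.0443 (adjusted p = 1.5e-18). With FP at 1.5 h, at 60.0, 39.99, 54.0 and 59.7 CPM, the groups overlapped (0.43 ± 0.176, adjusted p = 0.13). Between FP and IL-2 at 1.5 h the change was -0.39, and no receptor had an adjusted p below 0.85.

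At 16 h Ccr4 had 61.9, 63.4, 68.5 and 74.8 CPM after FP, against 46.3, 48.0, 52.6 and 43.4 CPM after PBS, and it was the 1 receptor that rose at that time (0.50 ± 0.0975, adjusted p = 0.00061). At 72 h it had 156, 148, 127 and 128 CPM after FP, against 51.5, 36.7 and 43.1 CPM after PBS, a rise of 1.68 ± 0.146 (adjusted p = 3.7e-06). The lowest FP library, at 127 CPM, lay above the highest PBS library, at 51.5 CPM. The FP change at 72 h exceeded that at 16 h by 1.17 ± 0.176 (adjusted p = 4.5e-05). At 168 h it had 108, 82.5, 63.9 and 68.6 CPM after FP, against 60.5, 38.5 and 47.3 CPM after PBS, without overlap but short of the threshold (0.72 ± 0.195, adjusted p = 0.099). With IL-2 Ccr4 had 40.9 to 56.2 CPM at 16 h and 40.3 to 57.6 CPM at 72 h, overlapping the PBS libraries at both times.

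Ccr8, the receptor for Ccl1 found on effector Tregs of tissues and tumours, was called in vitro alone. There it had 65.7, 63.6 and 62.7 CPM with IL-2, against 93.4, 94.4 and 90.0 CPM with PBS, and fell by 0.53 on the log2 scale (SE 0.0432, adjusted p = 1.5e-10). In animals its group means ran from 13.7 CPM (16 h FP) to 39.7 CPM (repeated FP), and groups overlapped in each comparison with PBS. Its change at 1.5 h of IL-2 was -0.70 ± 0.287 (adjusted p = 0.091), and the difference between the in vitro and the animal change was 0.16 ± 0.360 (adjusted p = 0.84), with a 95% interval of -0.54 to 0.87.

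Ccr6, the receptor for Ccl20 that leads cells to mucosal tissue and is shared with Th17 and B cells, rose with IL-2 in vitro and fell with FP from 16 h on. In vitro it had 30.6, 33.4 and 29.0 CPM with IL-2, against 17.2, 18.7 and 15.1 CPM with PBS, a rise of 0.86 ± 0.0769 (adjusted p = 9.9e-10). At 1.5 h in the animal it had 31.4, 24.2, 40.02 and 32.4 CPM after FP and 39.6, 25.3, 40.6 and 38.2 CPM after IL-2, against 20.1, 21.6, 20.7 and 33.6 CPM after PBS. Both groups were higher on average and overlapped PBS replicate 4, which stood apart from the other 3 PBS libraries. The change was 0.58 ± 0.195 with IL-2 (adjusted p = 0.042) and 0.42 ± 0.195 with FP (adjusted p = 0.19), and without PBS replicate 4 that of IL-2 was 0.79 (adjusted p = 0.0053).

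With FP in the animal, Ccr6 had 20.5, 15.1, 16.3 and 15.4 CPM at 16 h, against 29.9, 31.5, 30.5 and 25.9 CPM after PBS, a change of -0.81 ± 0.106 (adjusted p = 1.3e-05). At 72 h it had 8.78, 6.99, 6.69 and 10.6 CPM after FP, against 24.2, 20.9 and 25.4 CPM after PBS, a change of -1.5 ± 0.164 (adjusted p = 2.1e-05). At 168 h it had 14.7, 13.2, 14.2 and 12.4 CPM after FP, against 29.3, 25.9 and 43.4 CPM after PBS, a change of -1.27 ± 0.171 (adjusted p = 0.002). No FP library reached a PBS library at any of these 3 times, and without FP replicate 2 or 4 the adjusted p at 168 h was 0.012. The FP change at 16 h was 1.20 lower than at 1.5 h (-1.20 ± 0.233, adjusted p = 0.001), the 1 call among 9 receptors in that test, where 4.98% of genes were called. From 16 h to 72 h it moved by a further -0.71 ± 0.187 (adjusted p = 0.0072), and without any 1 of 9 libraries, FP replicates 1 and 3 and PBS replicates 1, 3 and 4 of 16 h and FP replicates 2 and 3 and PBS replicates 1 and 3 of 72 h, the adjusted p was 0.010 to 0.027. B cell marker sums were lower with FP at these times, 32.6 to 42.3 against 45.2 to 78.8 CPM at 72 h and 30.8 to 36.8 against 45.6 to 64.4 CPM at 168 h. Called singly, 1 of 10 rose and 1 fell at 72 h, and 0 of 9 rose and 1 fell at 168 h. The part of B cells in Ccr6 was not tested.

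Ccr2, the receptor for Ccl2 that draws monocytes and effector T cells to inflamed tissue, fell at 16 h of FP and was several-fold higher at 72 h and 168 h. At 16 h it had 12.9, 11.3, 11.4 and 12.5 CPM after FP, against 26.8, 16.5, 36.6 and 47.4 CPM after PBS, a change of -1.40 ± 0.312 (adjusted p = 0.0018). At 72 h it had 123, 135, 64.8 and 149 CPM after FP, against 39.0, 18.9 and 26.6 CPM after PBS, a rise of 2.07 ± 0.331 (4.19-fold, adjusted p = 0.00035). At 168 h it had 223, 116, 88.3 and 119 CPM after FP, against 40.8, 24.0 and 19.4 CPM after PBS, a rise of 2.27 ± 0.333 (4.84-fold, adjusted p = 0.0036). The groups did not overlap at any of the 3 times, nor did they in 34.4%, 46.9% and 14.6% of all genes tested, in that order. At 168 h the adjusted p was 0.011, 0.036 and 0.018 without FP replicate 4, PBS replicate 2 or PBS replicate 3.

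The turn of Ccr2 between 16 h and 72 h, 3.47 ± 0.511, was the largest difference among the receptors between those times (adjusted p = 3.6e-05), and from 72 h to 168 h the change of 0.21 ± 0.501 did not pass (adjusted p = 0.81). Ccr2 is also a monocyte gene. The myeloid sums after FP were 296 to 595 CPM at 16 h, against 384 to 610 CPM after PBS, 28.4 to 92.1 CPM at 72 h and 31.6 to 41.1 CPM at 168 h. Cd14, a marker of monocytes, averaged 0.149 CPM after FP and 5.00 CPM after PBS at 72 h. The part of these cells in Ccr2 was not tested. With IL-2 Ccr2 had 27.7 ± 12.4, 9.88 ± 3.04, 27.2 ± 13 and 31.5 ± 11.6 CPM at 1.5, 4, 16 and 72 h, without a call.

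**Figure D3:**
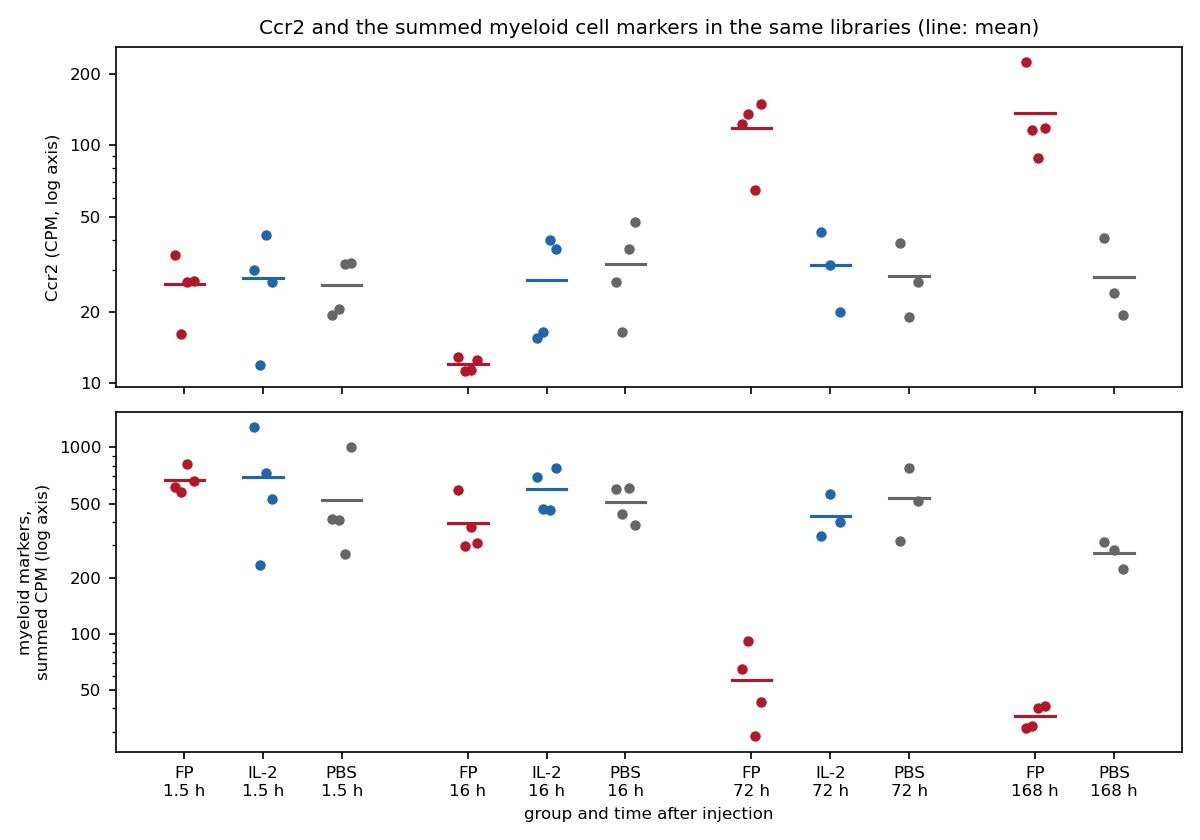
Ccr2 level (upper panel, CPM) and the summed CPM of 10 or 11 myeloid cell markers, by table (lower panel), in the same libraries, both on log axes, by group and time, red for FP, blue for IL-2 and grey for PBS, with lines at the means. At 72 h and 168 h of FP Ccr2 was at 64.8 to 223 CPM where the myeloid sum was at 28.4 to 92.1 CPM.

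Cxcr3, the receptor for Cxcl9 and Cxcl10 that depends on T-bet and leads T cells to type 1 inflammation, fell at 1.5 h of IL-2 and rose at 72 h of FP. At 1.5 h it had 20.1, 18.8, 22.99 and 24.4 CPM after FP and 18.91, 18.95, 19.5 and 20.8 CPM after IL-2, against 26.1, 32.8, 25.5 and 37.9 CPM after PBS. Both treated groups lay below all PBS libraries. The change was -0.64 ± 0.131 with IL-2 (adjusted p = 0.0025, or 0.011 without PBS replicate 2) and -0.50 ± 0.130 with FP (adjusted p = 0.019). At 72 h it had 48.6, 59.7, 65.0 and 75.5 CPM after FP, against 40.8, 29.5 and 34.5 CPM after PBS, a rise of 0.84 ± 0.144 (adjusted p = 0.0006). The FP change at 72 h exceeded that at 16 h, which was -0.43 ± 0.183 (adjusted p = 0.073), by 1.25 ± 0.257 (adjusted p = 0.001). Tbx21, which encodes T-bet and was chosen after its values were seen, rose in the same comparison at 72 h, with 12.9 CPM after FP against 6.33 CPM after PBS on average (1.03 ± 0.149, adjusted p = 0.00018). At 168 h the groups overlapped (0.58 ± 0.209, adjusted p = 0.22). CD8 T and NK cells also carry Cxcr3, and 6 of their markers summed to 29.4 to 39.4 CPM after FP and 23.5 to 26.3 CPM after PBS at 72 h. Of these 6, 1 rose and 3 fell (median change -0.83). Their part in Cxcr3 was not tested.

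Cxcr6, the receptor for Cxcl16 found on tissue-resident T cells and NKT cells, was lower at 16 h of FP. It had 9.93, 9.46, 10.1 and 9.74 CPM after FP, against 16.2, 16.2, 13.97 and 19.4 CPM after PBS, a change of -0.74 ± 0.112 (adjusted p = 5.4e-05), and 15.6, 19.4, 17.9 and 19.9 CPM after IL-2. The FP libraries lay within 1 CPM of each other and below all others. At 168 h it had 29.2, 24.7, 23.4 and 29.6 CPM after FP, against 16.0, 16.4 and 19.3 CPM after PBS, without overlap but above the threshold (0.63 ± 0.133, adjusted p = 0.034). The FP change at 168 h exceeded that at 72 h, which was -0.35 ± 0.127 (adjusted p = 0.041), by 0.98 ± 0.180 (adjusted p = 0.0012). This was the 1 call among 9 receptors between these times, where 8.6% of genes were called. In vitro it fell by 0.44 on the log2 scale (SE 0.0838, adjusted p = 0.0002), with 14.4 ± 1.57 CPM with IL-2 and 19.6 ± 1.34 CPM with PBS (SD, n = 3 each).

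Whether changes differed between times, between the dish and the animal, or between the restimulation table and 1.5 h was tested in 6 comparisons of changes. Between 16 h and 72 h of FP, 4 receptors moved up (Ccr2, Ccr4, Cxcr3 and Cxcr4) and 1 moved down (Ccr6), where 15.6% of all genes were called. The difference for Cxcr4 was 1.84 ± 0.475 (adjusted p = 0.006), and without any 1 of 10 libraries the adjusted p was 0.010 to 0.023: FP replicates 1, 2 and 4 and PBS replicates 1 and 3 of 16 h, and FP replicates 1, 2 and 3 and PBS replicates 2 and 3 of 72 h. For IL-2, 16 h against 1.5 h, edgeR called no receptor (12.8% of genes called), and DESeq2 called 3, Ccr4, Cxcr3 and Cxcr5. The DESeq2 share of all genes is not given here, so these calls need not be particular to the receptors. At an unadjusted p under 0.05 edgeR gave 6 of 9 receptors, beside 6121 of 17580 genes. Neither was a receptor called between a single FP in the restimulation table and FP at 1.5 h (0% of genes called), and DESeq2 called 0. There 2 of 9 receptors and 1554 of 16931 genes had an unadjusted p under 0.05. Each time, the in vitro work and the restimulation have a table and PBS libraries of their own. Time or setting and table therefore cannot be told apart.

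Set against IL-2 at 16 h, FP gave lower Ccr2, Ccr6, Cxcr3, Cxcr5 and Cxcr6 and higher Ccr4. The changes ran from -1.18 ± 0.314 for Ccr2 to 0.43 ± 0.0974 for Ccr4. Cxcr3, at 26.2 ± 3.83 CPM after FP and 40.6 ± 2.53 CPM after IL-2 (SD, n = 4 each), was close to the threshold (-0.63 ± 0.182, adjusted p = 0.0098) and lost its call without any of the 8 libraries (adjusted p 0.011 to 0.044), without the low-count filter (0.015) and with DESeq2's scaling (0.013). Ccr2 lost its call without any FP library or without IL-2 replicate 3 or 4 (0.011 to 0.039) and with DESeq2 (0.011), and Ccr4 without FP replicate 4 (0.010). At 72 h Ccr2 (1.91 ± 0.328), Ccr4 (1.54 ± 0.145) and Cxcr3 (0.88 ± 0.144) were higher and Ccr6 (-1.45 ± 0.164) and Ccr7 (-0.76 ± 0.146) lower with FP than with IL-2, and these 5 calls held without each library in turn.

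**Figure D4:**
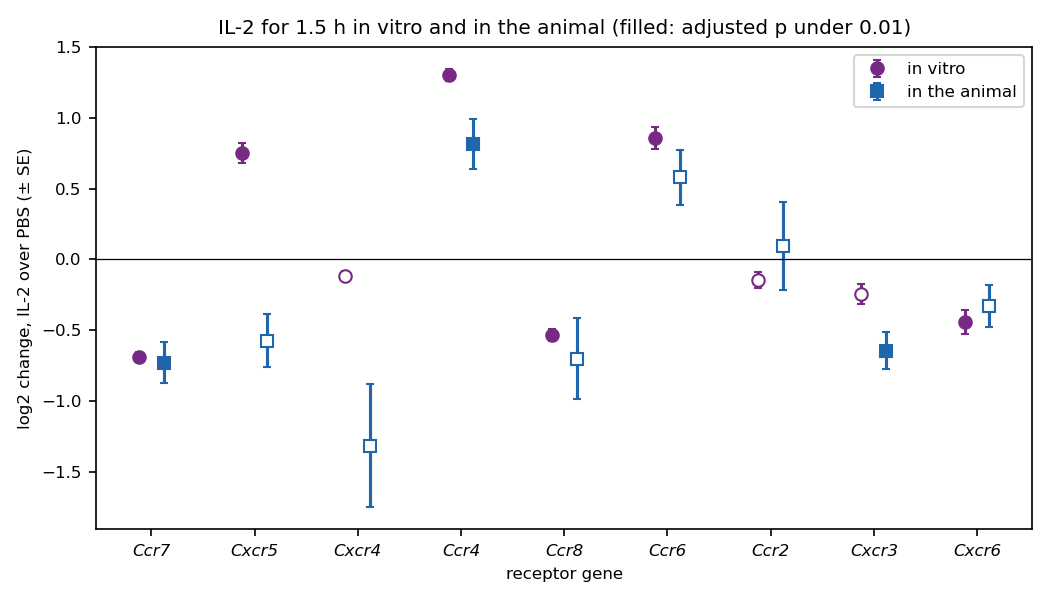
Log2 change with SE (IL-2 over PBS, 1.5 h) of each receptor in vitro (circles) and in the animal (squares), filled at an adjusted p below 0.01. Cxcr5 lies above 0 in vitro (0.75) and below 0 in the animal (-0.58), Ccr2 is near 0 in both (-0.15 and 0.10), and the other 7 receptors have the same sign in both.

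In vitro, IL-2 changed 6 of the 9 receptors, with Ccr4, Ccr6 and Cxcr5 higher and Ccr7, Ccr8 and Cxcr6 lower, and Cxcr3 was just short (-0.24 ± 0.0707, adjusted p = 0.014). Replicates were tighter there, with a common variation between libraries of 4.48% against 16.3% in the animal at 1.5 h. The levels themselves stood apart: Ccr7 was at 1560 ± 29.7 CPM and Cxcr4 at 435 ± 11.9 CPM in vitro with PBS, against 193 ± 50.9 and 196 ± 56.7 CPM in the animal with PBS. These come from tables scaled separately and are not tested against each other.

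At 4 h no receptor was called in either comparison with PBS, in the table with a variation between libraries of 38.4%. Libraries numbered 1 and 2 were above the libraries numbered 4 in each group for Ccr7, Ccr8, Cxcr3, Cxcr4 and Cxcr5. Cxcr3 had 50.5, 49.8 and 18.01 CPM after FP and 51.6, 47.0, 18.8 and 20.4 CPM after IL-2, against 79.6, 68.5 and 31.3 CPM after PBS. With the replicate numbers as a block, 994 genes were called with FP and 509 with IL-2 where 161 and 115 were called without it, and still 0 receptors. The deposited column headers of 8 of these libraries carry a further number, shared across groups except in IL-2 replicate 3. It ties FP replicate 2 to PBS replicate 1, not to PBS replicate 2. Among the FP libraries only replicates 2 and 4 carry such a number, so a fit with it as a block has few libraries beyond its groups and blocks. With that number as a block, chosen after seeing the data, Cxcr4 fell with FP (-1.06 ± 0.233, adjusted p = 0.0051) and with IL-2 (-1.16 ± 0.229, adjusted p = 0.0039), and Cxcr3 fell with FP (-0.73 ± 0.167, adjusted p = 0.0067). Among all genes that fit called 1382 with FP and 783 with IL-2, and the same 8 libraries without a block gave 51 and 34 and 0 receptors. The 2 libraries with contradicting labels had 15.9 CPM of Ccr2 (titled FP) and 44.9 CPM (titled PBS), and including them by title called 0 receptors as well.

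High-dose IL-2 left the receptors short of the threshold in a table whose variation was 40.7%. Ccr2 had 70.5, 28.9 and 61.0 CPM after high-dose IL-2, against 12.5, 8.90 and 5.26 CPM after PBS, a change of 2.59 ± 0.447 with an adjusted p of 0.041, and 1.7e-07 by DESeq2. Cxcr3 had 83.2, 163 and 101 CPM after high-dose IL-2, against 44.0, 25.6 and 55.2 CPM after PBS (1.47 ± 0.366, adjusted p = 0.11, or 0.0064 by DESeq2). Ccr4 had 92.0, 122 and 104 CPM, against 66.4, 30.2 and 72.2 CPM (0.91 ± 0.337, adjusted p = 0.25). The groups did not overlap in these 3 of the 9 receptors, nor in 24.4% of all genes tested, of which 0% were called. Myeloid sums were 46.8 to 72.7 CPM after high-dose IL-2 and 86.5 to 102 CPM after PBS.

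After repeated FP, Ccr6 fell against PBS and against single FP, and Cxcr6 rose against single FP. Ccr6 had 13.2, 14.3, 10.8 and 13.3 CPM after repeated FP and 29.0, 38.7 and 35.6 CPM after a single FP, against 24.0, 31.1 and 30.3 CPM after PBS. It fell by 1.14 on the log2 scale against PBS (SE 0.147, adjusted p = 0.0048) and by 1.41 against single FP (SE 0.147, adjusted p = 0.0021), with no overlap. The call against PBS was lost without any 1 of 6 libraries, PBS replicates 1 to 3 and repeated replicates 1, 2 and 4 (adjusted p 0.011 to 0.023) and with these 2 groups alone in the fit (0.012), and that against single FP without repeated replicate 1 or 4 or single replicate 2 or 3 (0.011 to 0.015).

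Cxcr6 had 32.6, 22.3, 22.5 and 24.5 CPM after repeated FP and 8.24, 11.5 and 11.7 CPM after single FP, against 18.6, 16.3 and 13.6 CPM after PBS. The 3 groups did not overlap, and the change between repeated and single FP was 1.28 ± 0.192 (adjusted p = 0.0091, and 0.017 to 0.040 without repeated replicate 1, 2 or 4 or single replicate 1, 2 or 3). Ccr2 had 112, 29.9, 85.5 and 42.7 CPM after repeated FP, against 26.0, 19.6 and 22.8 CPM after single FP, a change of 1.57 ± 0.397 (adjusted p = 0.07, and 0.0017 by DESeq2). The single FP library numbered 1 stood apart in Cxcr4, with 311 CPM beside 68.6 and 63.8 CPM. Its Treg markers summed to 4420 CPM, beside 5750 and 5580 CPM in the other single FP libraries and 4340 to 4510 CPM after PBS. Myeloid sums were 34.1 to 79.1 CPM after repeated FP, 146 to 152 CPM after single FP and 82.9 to 166 CPM after PBS.

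**Figure D5:**
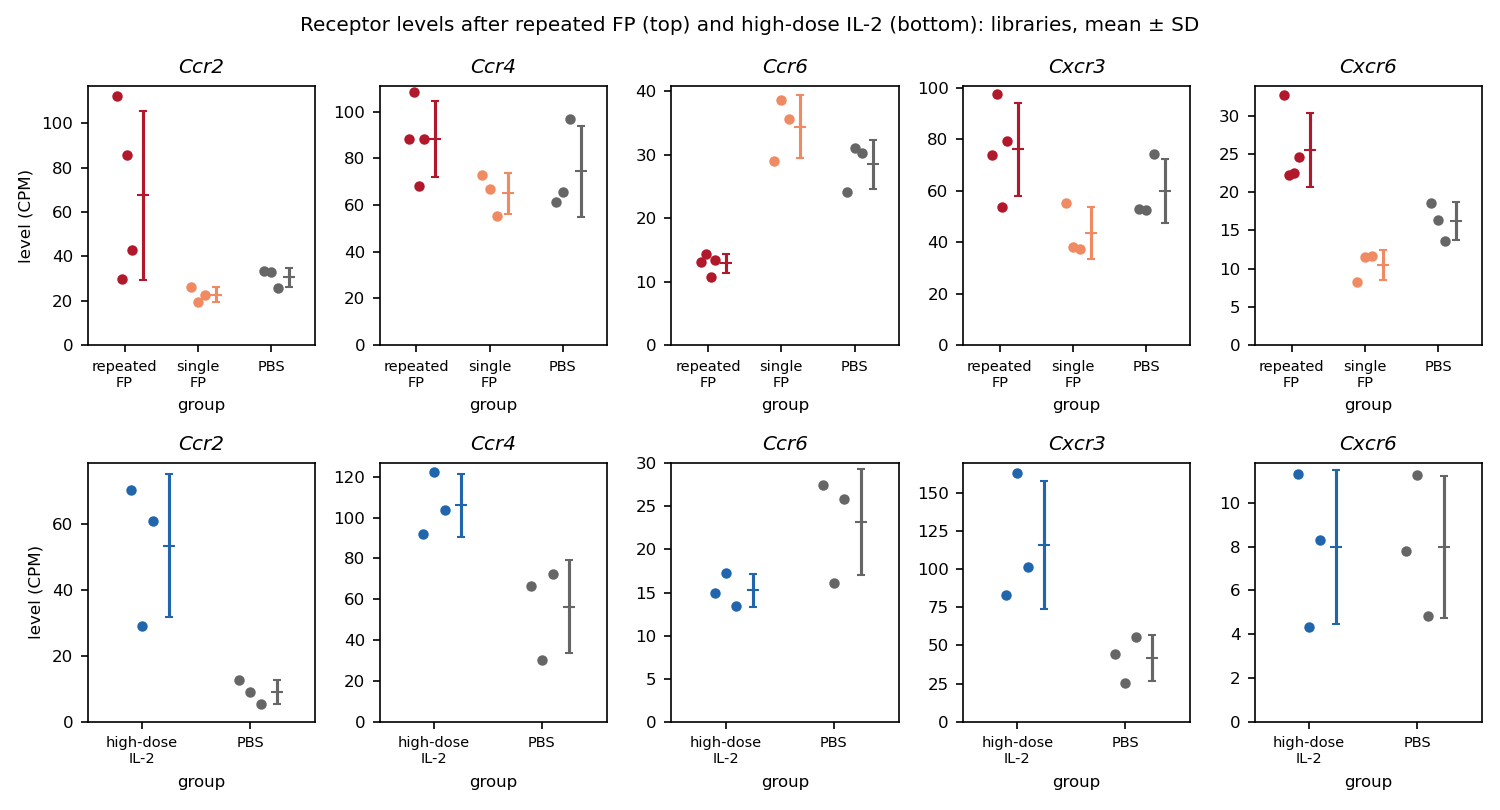
Levels (CPM, from 0) of Ccr2, Ccr4, Ccr6, Cxcr3 and Cxcr6 after repeated FP, single FP and PBS in the restimulation table (upper row) and after high-dose IL-2 and PBS (lower row), with each library as a point and mean ± SD beside it. Ccr6 sits at 10.8 to 14.3 CPM after repeated FP, below both other groups, and Cxcr6 above both.

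The other genes of the pathway were counted from 5 lists, and the counts stand beside the shares of all genes called, 28.8% at 16 h of FP (14.4% higher and 14.3% lower) and 30.4% at 72 h (17.3% higher and 13.1% lower). Of 14 further chemokine receptors, 8 were tested at 16 h of FP and 0 rose and 2 fell, Ccr9, which leads cells to the gut (-0.99 ± 0.105, adjusted p = 1.4e-06), and Ccr3, a receptor for eotaxins (-1.01 ± 0.266, adjusted p = 0.0058). That share was near the 28.8% of all genes. At 72 h of FP Ccr1, a receptor of myeloid and effector cells, rose at a low level (0.830 CPM after FP against 0.252 CPM after PBS), and Ccr3 fell (-2.43 ± 0.368, adjusted p = 0.00024) beside the fall of the myeloid markers, whose part in it was not tested.

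Of 19 chemokine ligands, 6 were tested at 16 h of FP, where Cxcl9, a ligand of Cxcr3, rose (2.63 ± 0.296, adjusted p = 2.5e-06) and Ccl5 fell (-1.41 ± 0.268, adjusted p = 0.00047). At 72 h 8 were tested and 3 fell, Ccl6, Ccl5 and Cxcl16, the ligand of Cxcr6. At both times the called share was near that of all genes (28.8% and 30.4%). At 168 h, where 1.21% of genes were called, Ccl5 rose (1.82 ± 0.219, adjusted p = 0.00095) and Ccl6 fell. CD8 T and NK cell markers, of cells that make Ccl5, summed to 29.6 to 43.0 CPM after FP and 16.0 to 29.6 CPM after PBS at 168 h, with 0 of 6 called. The part of other cells in these ligands was not tested.

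Of 28 genes of receptor signalling and desensitisation, 26 were tested. At 16 h of FP, where 28.8% of all genes were called, 2 rose and 8 fell, among them Rgs16 (-1.52 ± 0.161), an inhibitor of G protein signalling, Arrb1 (-0.53 ± 0.0745), a beta-arrestin, and Rgs10 (-0.51 ± 0.0908), while Elmo1 and Gnb1 rose. At 72 h, where 30.4% of all genes were called, 10 rose and 3 fell. Gnb2 (0.89 ± 0.119), Gnai2 (0.98 ± 0.146), the inhibitory G protein subunit of these receptors in lymphocytes, and Gnb1 (0.60 ± 0.1) rose, and Grk3 (-5.06 ± 0.475), Rgs16 (-2.04 ± 0.25) and Arrb1 (-0.59 ± 0.0914) fell. Grk3 averaged 0.935 CPM after FP and 31.3 CPM after PBS, in libraries that differ in myeloid sums as given above, and the part of those cells was not tested. Rgs1, an inhibitor of G protein signalling, rose at 1.5 h with IL-2 (1.79 ± 0.251) and with FP (1.32 ± 0.248).

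All 11 partners of lymph node entry and egress were tested. At 16 h of FP, where 14.4% of all genes were called higher and 14.3% lower, 0 rose and 7 fell, led by the integrin chain Itga4 (-0.91 ± 0.0751), S1pr1 (-0.71 ± 0.0811), the receptor by which lymphocytes leave lymphoid organs, and S1pr4 (-0.59 ± 0.0884). At 72 h, where 17.3% were called higher and 13.1% lower, 4 rose and 0 fell, led by Itgb7 (1.02 ± 0.114), an integrin chain of gut homing, and Selplg (0.95 ± 0.150), the ligand of selectins, with Itgae (0.81 ± 0.135), an integrin chain of tissue T cells, among them. The median change of the list was -0.37 at 16 h and 0.61 at 72 h, beside medians of -0.43 and 0.35 over the 9 receptors and of -0.05 over all genes at both times.

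Of 18 transcription factors tied to receptor expression, 17 were tested at 16 h and 72 h of FP. At 16 h, where 28.8% of all genes were called, 1 rose, Runx3 (0.62 ± 0.082), and 9 fell, led by Bcl6 (-2.20 ± 0.123), the factor of follicular cells, Tcf7 (-1.07 ± 0.0984), a factor of resting T cells, and Rora (-0.84 ± 0.0909). At 72 h, where 30.4% were called, 8 rose, led by Prdm1 (1.06 ± 0.105), Runx3 (1.00 ± 0.112) and Hif1a (0.89 ± 0.12), and 2 fell, Bcl6 (-1.25 ± 0.182) and Tcf7 (-0.84 ± 0.124). In vitro, where 13.9% were called, 6 of 17 rose and 5 fell, and Bcl6 fell by 3.25 on the log2 scale (SE 0.0409), in the comparison in which Cxcr5 rose. The adjusted p-values of the genes named in this paragraph were at most 0.0002.

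Genes whose level ran most alike with a receptor over the 73 libraries, after taking out each table's mean, are given as a description. For Ccr2 they were Itga2 (Pearson r = 0.894), Nhsl2 and Il1rl1, the IL-33 receptor of tissue Tregs (0.828). For Ccr4 they were Actg1 (0.862), Dtx3l and Bak1, for Ccr6 Dscam (0.821), Slpi and Tgfbr3, and for Ccr7 Hsdl1 (0.852), Limd2 and Gtf2i. For Ccr8 they were Pdcd1, which encodes PD-1 (0.82), Susd2 and Spock2, and for Cxcr3 Plekhb2 (0.908), Trpv2 and Arel1. For Cxcr4 they were Tsc22d3, a glucocorticoid-induced gene (0.891), Map1lc3b and Tagap, for Cxcr5 Ighm, an immunoglobulin gene of B cells (0.855), Syt11 and Zfp41, and for Cxcr6 Tm7sf3 (0.694), Slc9a9 and Elk3. Among the receptors themselves the closest pair was Cxcr3 and Cxcr5 (0.713) and the most opposite pair Ccr2 and Ccr6 (-0.426). Libraries of 1 group share their treatment, and libraries of 1 table their preparation, so the points are not independent.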

How the data were processed

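Gene counts were deposited by the authors as 8 tables of raw read counts, 1 for each time or experiment, and per the submitters' processing notes reads were aligned with STAR 2.5.0 to GRCm38 and counted with featureCounts 1.5.0. Per the labels' protocols, libraries were made from total RNA after ribosomal depletion. Strand and multi-mapping settings are not given in the sources used here. The 91 samples are 75 libraries, since 16 are further runs of a library: their counts differed from their partner's by about sampling noise (chi-square per degree of freedom 1.03 to 1.08, against 1.89 to 303 between libraries of a group), and runs were summed. At 4 h 2 libraries whose labels contradict each other were left out, leaving 73.

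Counts of each table were filtered (filterByExpr), scaled (TMM) and fitted with edgeR 4.0.16 (limma 3.58.1, R 4.3.3) by the quasi-likelihood test, with all groups of a table in 1 fit. P-values were adjusted by Benjamini-Hochberg over all genes, and the threshold of 0.01 is the one the authors name. Changes between tables were compared in joint fits with 6 differences of changes. The SE is the change over the root of its F value, and 95% intervals use a normal multiplier and are too narrow. DESeq2 1.42.0, other scaling, no filter, fits of the compared groups alone, replicate blocks and leaving out each library were the alternatives, and the steps were tested on simulated data. Labels do not say that libraries come from separate animals, so p-values measure the spread between libraries, which may be technical. Replicate numbers were taken to pair samples where every same-numbered pair of libraries correlated above 0.1 in its deviations, which held between FP and PBS and between IL-2 and PBS at 4 h (0.18 to 0.821) and between IL-2 and PBS at 72 h (0.291 to 0.423). At 4 h, numbers in the deposited column headers of 8 libraries go against this for FP: FP replicate 2 shares its number with PBS replicate 1 (correlation 0.614) and not with PBS replicate 2 (0.18). What these numbers mean is not given in the sources used here, and they were tried as a block after seeing the data.

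The receptors and lists were chosen with earlier results of these data known. All receptors are named, and from each list up to 3 called genes a direction with the smallest p at 16 h and 72 h of FP and up to 2 in other comparisons. Likeness used log2 CPM with a prior count of 2, less the mean of each table, over 9680 genes whose mean reached 5 CPM. Gene positions are from GENCODE in GRCm38 and promoters from RefSeq in GRCm38.p6, and 99.7% of gene IDs matched a symbol. A further receptor of the lists is not reported here.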

Additional observations from a re-analysis of the deposited data

Results flagged for a closer look

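In 6 of 90 groups of receptor levels 1 library stood far from the others, where chance flags about 1 in 20 groups. Ccr6 was at 25.3 CPM in 1.5 h IL-2 replicate 2 (38.2 to 40.6 in the other IL-2 libraries), at 33.6 CPM in 1.5 h PBS replicate 4 (20.1 to 21.6 in the others) and at 22.2 CPM in 4 h IL-2 replicate 1 (15.5 to 16.4 in the others). Ccr7 was at 270 CPM in 1.5 h PBS replicate 4 (166 to 169 in the others) and at 147 CPM in 16 h FP replicate 1 (123 to 127 in the others). Cxcr6 was at 8.14 CPM in 4 h IL-2 replicate 1 (11.9 to 12.6 in the others).

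Of 54 differences between changes, 8 passed the test. Of all genes, 4.98% were called between 16 h and 1.5 h of FP, 15.6% between 72 h and 16 h and 8.6% between 168 h and 72 h. The share was 12.8% between 16 h and 1.5 h of IL-2 and 4.96% between the dish and the animal. Between a single FP in the restimulation table and FP at 1.5 h it was 0%. The FP change of Ccr6 differed between 16 h and 1.5 h by -1.20. Between 72 h and 16 h of FP the differences were 3.47 for Ccr2, 1.17 for Ccr4, -0.71 for Ccr6, 1.25 for Cxcr3 and 1.84 for Cxcr4. The FP change of Cxcr6 differed between 168 h and 72 h by 0.98, and the IL-2 change of Cxcr5 differed between the dish and the animal by 1.32.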

How the results depend on the processing

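Of 1116 receptor values under alternatives other than leaving out a library, 1085 kept their side of the threshold, 9 lost and 22 gained a call, and no called value reversed. Of 124 counts of called receptors, 11 moved by over 1.5 times, and the cause was not tested. The number of all genes called also changed with the setting, as given above for high-dose IL-2 and for 4 h. The counts of receptors below stand without it, so a gained or lost call need not be particular to the receptors. With DESeq2, 2 were called at 1.5 h of FP (Ccr7 and Cxcr3, 0 by edgeR), 2 with high-dose IL-2 (0), 3 between 16 h and 1.5 h of IL-2 (0) and 2 between 168 h and 72 h of FP (1). With only the compared groups in the fit, 0 were called after repeated FP against PBS (1) and 1 between repeated and single FP (2). With the replicate block, 1 was called at 1.5 h of FP (Cxcr4, -1.24, adjusted p = 0.0077), 0 after repeated FP against PBS (Ccr6, adjusted p = 0.11) and 0 between repeated and single FP (Ccr6 0.059, Cxcr6 0.13). There, and wherever pairs were not all correlated above 0.1, samples share only a number. The block also brought the adjusted p of Cxcr4 to 0.002 at 1.5 h of IL-2 and 0.00074 at 72 h of FP, of Cxcr5 to 0.0078 at 72 h of FP, and of Ccr4 to 0.0075 at 168 h. It moved no receptor's call at 4 h or at 72 h of IL-2. With the number of the 4 h column headers as a block over 8 libraries, chosen after seeing the data, 2 were called with FP (Cxcr3 and Cxcr4, 0 without it) and 1 with IL-2 (Cxcr4). Of the FP libraries only replicates 2 and 4 were in that fit. With the first part of that number 0 were called in each.

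Leaving out each library gave 0 to 1 called receptors at 1.5 h of FP, 1 to 4 at 1.5 h of IL-2, 5 to 8 at 16 h of FP, 3 to 5 between FP and IL-2 at 16 h, 5 to 6 at 72 h of FP, 0 to 2 at 168 h and 6 to 7 in vitro. It gave 0 to 1 after repeated FP, 0 to 2 between repeated and single FP, 3 to 6 between 72 h and 16 h of FP, 1 to 2 between 168 h and 72 h of FP and 0 to 1 between 16 h and 1.5 h of IL-2. Of 14 gains, some were Ccr8 (adjusted p = 0.0054) and Cxcr3 (0.00092) at 16 h of FP without PBS replicate 4, Cxcr5 at 1.5 h of FP without FP replicate 4 (-0.82, 0.00098), Cxcr4 at 72 h of FP without FP replicate 4 (0.007) and Cxcr3 in vitro without PBS replicate 3 (0.0097). Others were Ccr6 at 1.5 h of IL-2 (0.0053) and Cxcr4 between FP and IL-2 at 16 h (0.0094). Among differences of FP changes, Cxcr5 gained a call between 72 h and 16 h (0.0054) and Ccr4 between 168 h and 72 h (0.0028). Between 16 h and 1.5 h of IL-2, gains were Ccr4 (0.0011 to 0.0086), Cxcr3 (0.0044 to 0.006) and Ccr6 (0.0091). The variation between libraries was 38.4% at 4 h and 40.7% in the high-dose table.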

Other observations

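Early responses of the pathway beyond the 9 receptors were also present. At 1.5 h in the animal, Ccr9, the gut-homing receptor, averaged 14.2 CPM after FP and 9.81 CPM after IL-2, against 28.2 CPM after PBS (-0.99 ± 0.177 with FP, adjusted p = 0.0018, and -1.52 ± 0.181 with IL-2, adjusted p = 3.3e-05). It was the 1 gene called among the 7 further receptors tested with either agent, where 6.67% of all genes were called with FP and 14.2% with IL-2. With IL-2 that count was near the share of all genes. In vitro, where 13.9% of all genes were called, a share near this count, the 1 call among 9 further receptors was Ccrl2. It is an atypical receptor that binds chemerin (-0.62 ± 0.0998, adjusted p = 2.1e-05). Also in vitro, Selplg rose (0.92 ± 0.0358, adjusted p = 3.1e-17) and S1pr1 fell (-0.33 ± 0.0363, adjusted p = 4.6e-08). At 16 h of IL-2, where 0.35% of all genes were called, the 1 call over the 5 lists was Cxcl9 (1.86 ± 0.31, adjusted p = 0.006), at 4.17 CPM after IL-2 and 1.14 CPM after PBS.

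After repeated FP, Ccl5 averaged 38.5 CPM, against 7.16 CPM after single FP (2.43 ± 0.292, adjusted p = 0.0037) and 9.94 CPM after PBS (1.96 ± 0.285, adjusted p = 0.0079). Gata3, a factor of tissue Tregs, averaged 361 CPM after repeated FP and 193 CPM after single FP (0.90 ± 0.134, adjusted p = 0.0089). It was the 1 call among 17 transcription factors tested, where 0.585% of all genes were called. CD8 T and NK cell markers summed to 23.7 to 55.4 CPM after repeated FP, 19.2 to 24.6 CPM after single FP and 20.3 to 30.5 CPM after PBS, with 0 of 5 tested called, and their part in Ccl5 was not tested.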
